A study of Rattus norvegicus with 19 samples.

Results

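The genes described here are Vip, Gal and Npy, which encode the precursors of vasoactive intestinal peptide, galanin and neuropeptide Y. They were chosen by symbol, with their high signals after the lesion already known, as neuropeptides made by neurons whose axon has been cut. Each has 1 probe set annotated to it alone (1377146_at for Vip, 1387088_at for Gal and 1387154_at for Npy), so the set is 3 genes of 14217 named on the array and 3 probe sets of 31042 tested. The arrays hold RNA of motor cortex from adult female Fischer 344 rats whose dorsal columns had been cut with a wire knife at the third cervical segment. Controls, labelled as time 0, gave 4 arrays, and each of days 1, 3, 7, 14 and 49 from the lesion gave 3. The labels name no transgene or drug in any group. The labels do not say whether controls had a sham operation or whether each array is 1 rat, so the spread given is that between labelled samples.

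Only the inferior portion of motor cortex (forelimb and hindlimb areas) was taken, where the layer V neurons lie whose spinal axons run in the cut tract, and it also holds interneurons, glia and vessels. In such bulk tissue, a larger number of cells that make a transcript and more of it per cell cannot be told apart. The layer V marker Pcp4 had a log2 signal between 12.65 and 13.16 in every array, and the glutamate transporter gene Slc17a7 between 8.53 and 8.77 at day 7. Both belong to a list of 18 deep layer markers and were named after their values were seen. Some other markers of that list ranged more widely over the arrays, such as Bcl11b (4.43 to 6.12) and Camk2a (4.80 to 6.19). Vip peptide belongs to the secretin family, raises cyclic AMP in target cells, and is made in cortex by a class of GABAergic interneurons. Npy is likewise a peptide of cortical interneurons and acts mostly through receptors that lower cyclic AMP. Galanin is scarce in normal cortex and is known for appearing in sensory, sympathetic and motor neurons after axotomy. All 3 are cut from longer precursors, stored in dense core granules and released on strong firing.

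The stretch before each gene's start is shown because the 3 genes were high in the same arrays, and Vip is a textbook target of cyclic AMP signalling. Sequences are those of RefSeq in assembly GRCr8, 5′ to 3′ on the gene's strand, with matches to TGACG, the core letters of the cyclic AMP response element, in capitals. For Vip, 30 bases around the match are given, since another RefSeq model of the gene starts farther upstream. The Vip stretch is chr1:44470371-44470400 on the plus strand, Gal chr1:210084573-210084822 on the minus strand and Npy chr4:80211861-80212110 on the plus strand.
Vip: ggatcaccactgTGACGtctttcgaggagc
Gal: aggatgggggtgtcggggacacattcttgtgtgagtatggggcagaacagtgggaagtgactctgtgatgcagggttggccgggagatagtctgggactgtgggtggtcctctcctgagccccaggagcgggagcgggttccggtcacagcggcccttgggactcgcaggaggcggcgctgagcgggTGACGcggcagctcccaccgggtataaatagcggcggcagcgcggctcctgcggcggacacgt
Npy: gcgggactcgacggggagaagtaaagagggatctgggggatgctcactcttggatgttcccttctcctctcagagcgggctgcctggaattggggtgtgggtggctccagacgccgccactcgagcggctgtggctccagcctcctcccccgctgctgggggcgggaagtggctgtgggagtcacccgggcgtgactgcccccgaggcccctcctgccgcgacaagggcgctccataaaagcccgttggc

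In the 250 bases before the start, both strands were searched for the full element (TGACGTCA), its core (TGACG, which the full element contains), the AP-1 motif (TGANTCA) and a STAT motif (TTCNNNGAA). Vip had 1 core, with its first base 97 bases before the start, and Gal had 1, with its first base 63 bases before it. Npy had none of the 4 motifs, and neither Vip nor Gal had the full element, AP-1 or STAT letters in this window. Of 33469 RefSeq promoters of the same length, 18.2% held the core, 1.59% the full element, 6.34% the AP-1 motif and 7.67% the STAT motif. A match is only a match of letters.

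Vip stood near its control level through day 3, was high at days 7 and 14, and was nearer to control again at day 49. The 4 control arrays had log2 signals of 3.97, 3.82, 3.77 and 4.05 for replicates 1 to 4. At day 1 the arrays had 4.01, 3.97 and 4.67, and at day 3 they had 3.85, 4.43 and 3.84. In each of these days 1 of the 3 arrays lay above every control. At day 7 the Vip signal was 4.08 in replicate 1, 5.49 in replicate 2 and 7.41 in replicate 3, so the first array was barely above the highest control and the last far above it. At day 14 it was 7.14, 6.56 and 6.41, which put all 3 arrays well clear of control. At day 49 it was 3.80, 4.20 and 4.88, with 1 array within the control range and 2 above it, and replicate 3 stood at 1.97-fold of the control mean.

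The fitted Vip difference from control was 0.32 at day 1, 0.14 at day 3, 1.76 at day 7, 2.81 at day 14 and 0.39 at day 49 on the log2 scale, each with SE 0.51. This SE rests on 1 spread pooled over all 6 groups, of which day 7 spread the most. With only control and the day compared in the fit, the SE was 0.16, 0.14, 0.61, 0.18 and 0.23 in order of time. The day 14 value is a 6.99-fold difference and the day 7 value a 3.39-fold one. The Vip control signals were low on this log2 scale (3.77 to 4.05), which limits what its folds and its small differences mean. The fitted differences carry no test, because the genes were chosen with them in view. The group means fell in the order day 14 (6.70 ± 0.39, SD, n = 3), day 7 (5.66 ± 1.67), day 49 (4.29 ± 0.54), day 1 (4.22 ± 0.39), day 3 (4.04 ± 0.34) and control (3.90 ± 0.13, SD, n = 4). Neighbours in this order overlapped throughout, and only day 7 over day 49 had a gap, 1.37, larger than the pooled SD of the pair, 1.24. The small Vip differences hung on single arrays: without day1 replicate 3 the day 1 value was 0.09, without day3 replicate 2 the day 3 value was -0.06, and without day49 replicate 3 the day 49 value was 0.10.

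Gal was likewise high at days 7 and 14, but unlike Vip it had every day 1 array above control. Its control arrays had log2 signals of 6.70, 6.52, 6.85 and 6.60. At day 1 the arrays had 7.06, 6.87 and 7.25, all above every control, although replicate 2 was above the highest control by little. At day 3 they had 6.81, 7.17 and 7.15, of which replicate 1 lay within the control range. At day 7 the Gal signal was 7.15, 7.86 and 8.78, and at day 14 it was 8.46, 8.71 and 8.11, so every array of both days was above control. At day 49 it was 6.58, 6.99 and 6.77, with 1 array above control.

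The fitted Gal difference was 0.39 at day 1, 0.38 at day 3, 1.26 at day 7, 1.76 at day 14 and 0.11 at day 49 on the log2 scale, each with SE 0.26. At day 14 this is a 3.38-fold difference. With only control and the day compared in the fit, the SE was 0.11, 0.11, 0.31, 0.16 and 0.13 in order of time. The order of the Gal means was day 14 (8.43 ± 0.30, SD, n = 3), day 7 (7.93 ± 0.81), day 1 (7.06 ± 0.19), day 3 (7.05 ± 0.20), day 49 (6.78 ± 0.20) and control (6.67 ± 0.14, SD, n = 4). The gap of day 7 over day 1, 0.87, was larger than the pooled SD of the pair (0.59), and so was that of day 3 over day 49, 0.27 against 0.20. All neighbours in this order still overlapped in range.

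At day 1 Npy did not leave the control range, and at day 3, as for Vip, only replicate 2 lay above the highest control. The Npy control arrays had log2 signals of 6.53, 6.58, 6.23 and 6.03. At day 1 the arrays had 6.24, 6.39 and 6.53, none above the highest control, and at day 3 they had 6.55, 6.80 and 6.24. At day 7 the Npy signal was 6.65 in replicate 1, 7.01 in replicate 2 and 9.03 in replicate 3, with the first close to control and the last above every other Npy value of the series. At day 14 it was 8.53, 7.81 and 7.76, all well above control. At day 49 it was 6.14, 7.01 and 6.81, with 2 arrays above control.

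The fitted Npy difference was 0.04 at day 1, 0.19 at day 3, 1.22 at day 7, 1.69 at day 14 and 0.31 at day 49 on the log2 scale, each with SE 0.41. At day 14 this is a 3.23-fold difference. With only control and the day compared in the fit, the SE was 0.14, 0.16, 0.48, 0.23 and 0.23 in order of time. The order of the Npy means was day 14 (8.03 ± 0.43, SD, n = 3), day 7 (7.56 ± 1.28), day 49 (6.66 ± 0.46), day 3 (6.53 ± 0.28), day 1 (6.39 ± 0.14) and control (6.34 ± 0.26, SD, n = 4). No neighbouring pair in that order had a gap above its pooled SD, and all overlapped. The day 1 value of Npy had no settled sign: it was -0.03 without day1 replicate 3 and -0.06 without control replicate 4. Without day3 replicate 2 the day 3 value was 0.05, and without day49 replicate 1 the day 49 value was 0.57.

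**Figure D1:**
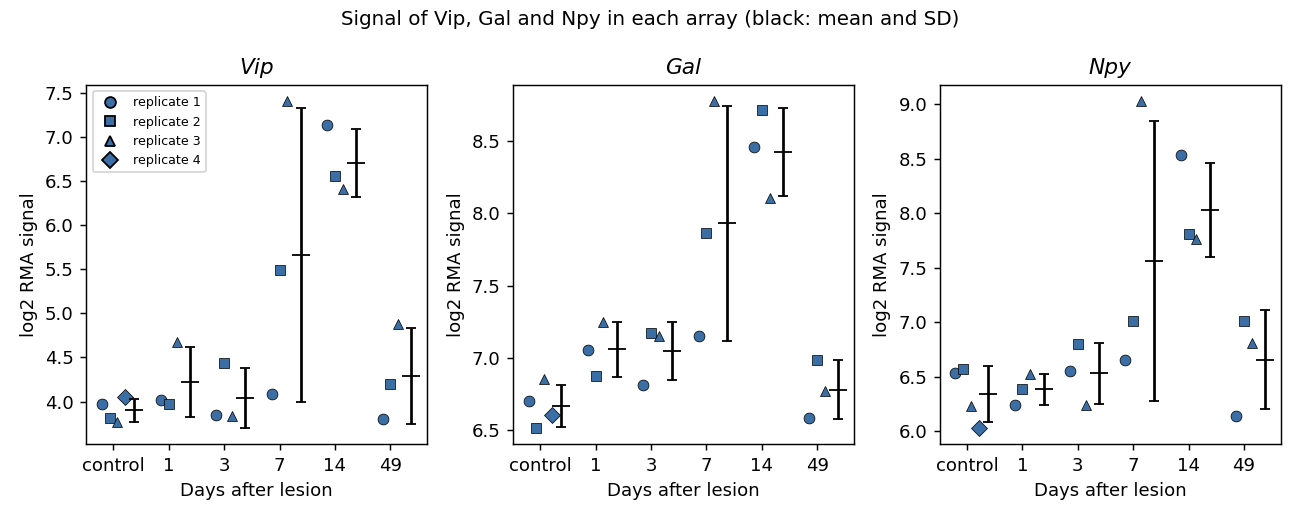
Log2 RMA signal of Vip, Gal and Npy (vertical axis, own scale in each panel) in each array by group (horizontal axis, days after lesion); shapes mark the replicate number, and the black bar is the mean with its SD (n = 4 for control, 3 for each day). Day 14 arrays lie together above control, while day 7 arrays spread from near control to above every day 14 array.

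All lesion arrays lay above all control arrays in 3 of the 3 genes at day 7 and at day 14, in Gal alone at day 1 and in none at days 3 and 49. Over all 31042 probe sets 2.86% did so at day 7, 6.43% at day 14, 4.4% at day 1, 2.65% at day 3 and 5.27% at day 49. The day 7 and day 14 counts are a description, since the genes were picked from these contrasts. The differences at the several days share the same 4 control arrays. The day 14 signals include replicate 2, which stands apart from the other arrays. Its beta-actin signal was 2.24 higher at the 3′ end than at the 5′ end on the log2 scale, against 0.845 to 1.29 in the other arrays. Its median correlation with the others was 0.931, that of day 49 replicate 2 was 0.968, and that of the remaining 17 arrays was at least 0.994. Without these 2 arrays the day 14 differences were 2.88 for Vip, 1.61 for Gal and 1.80 for Npy, and the day 49 differences 0.44, 0.01 and 0.13.

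The 3 day 7 arrays stood in the same order for each of the 3 genes. Replicate 3 was the highest, replicate 2 came next and replicate 1 was the lowest. Relative to the control mean, replicate 1 stood at 1.14-fold for Vip, 1.40-fold for Gal and 1.24-fold for Npy. Replicate 2 stood at 3.01-fold for Vip, 2.29-fold for Gal and 1.59-fold for Npy. Replicate 3 stood at 11.4-fold, 4.31-fold and 6.43-fold, above every day 14 array of each gene. Since Vip had low control signals, its folds are not to be ranked against those of Gal and Npy.

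Leaving out an array moved the day 7 difference accordingly. Without day7 replicate 3 the Vip difference was 0.89, that of Gal 0.84 and that of Npy 0.49. Without day7 replicate 1 they were 2.55, 1.65 and 1.68. All stayed above 0, as they had to, since every day 7 array lay above every control array.

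Among the 14217 genes, Vip had the widest range over the 3 day 7 arrays (3.32 on the log2 scale), Npy the second widest (2.38) and Gal the sixth (1.63). Only 15 genes had a day 7 range of at least 1. Of these, 12 were highest in replicate 3 and 3 in replicate 2, and 11 had the order 3, 2, 1. Beside the members, the other genes with the highest signal in replicate 3 were Atf3 (range 1.89), Csrp3 (1.70), S100a9 (1.51), Tslp (1.24), S100a8 (1.21), Ccn2 (1.10), Mfap4 (1.10), Sprr1a (1.03) and Reg3a (1.01). S100a8 and S100a9 encode calcium-binding proteins abundant in neutrophils, and Tslp is a cytokine gene. Zdhhc20 (1.72), Slitrk3 (1.29) and Hspa4 (1.09) were instead lowest in replicate 3. The 12 genes of these that are not Vip, Gal or Npy were listed by the size of their range, after their values were seen. Vip, Gal and Npy were chosen with their day 7 signals known, so their ranks and their places in these counts are only a description. Over all genes replicate 3 was the highest of day 7 in 39.3%, and the order 3, 2, 1 held in 22.8%.

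Genes known from axotomized neurons were mostly highest in the same array. Of 17 such genes other than the members, 16 had their highest day 7 signal in replicate 3 and 13 the order 3, 2, 1. This list was chosen with earlier results of these data known, so the counts are only a description. The exception, highest in replicate 2, was Cacna2d1, a calcium channel subunit gene, whose 3 signals lay within 0.07. Atf3, a transcription factor that neurons switch on when their axon is cut, had log2 signals of 6.36, 6.83 and 8.24 in day 7 replicates 1 to 3. Csrp3, a LIM protein gene, had 4.72, 6.06 and 6.42, and Sprr1a, a growth-associated protein of injured neurons, had 3.80, 4.20 and 4.84. Sprr1a, like Vip, had low control signals (3.85 to 4.02). In Csrp3 and Sprr1a the first array was within or below the control range, as it nearly was for Vip. The remaining genes had day 7 ranges under 1, among them Flrt3 (0.50), Gadd45a (0.45), Ecel1 (0.38), Nts (0.36), Sox11 (0.29) and Gap43 (0.19).

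At day 1 Atf3 stood further from control than the members did. It had log2 signals of 7.16, 7.17 and 8.64 at day 1 against at most 6.11 in control, a difference of 1.73 (SE 0.38, limma adjusted p = 0.415). At that day Vip differed by 0.32, Gal by 0.39 and Npy by 0.04, and among the axotomy genes Csrp3 differed by 0.14, Sprr1a by 0.08 and Il24 by -0.04. The day 1 array with the highest Atf3, replicate 3, also had the highest Vip, Gal and Npy, and it was the highest for 47.2% of all genes. Its means of astrocyte (7.49) and microglia markers (6.28) were above every control too, and their part in these signals was not tested. The astrocyte mean was also above every control in day 1 replicates 1 and 2 (7.36 and 7.38). At day 14 the order differed among the members: Vip and Npy were highest in replicate 1 and Gal in replicate 2. Day 14 replicate 2 is an array that stands apart, and it was the highest of that day for 58.3% of all genes.

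**Figure D2:**
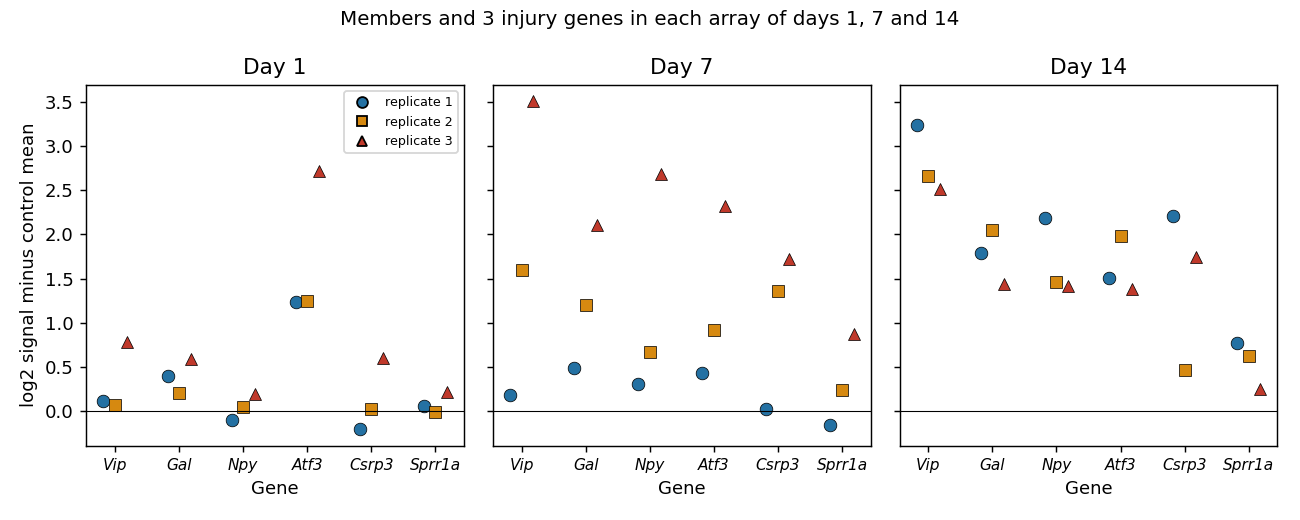
Log2 signal minus the control mean (vertical axis) of Vip, Gal, Npy, Atf3, Csrp3 and Sprr1a (horizontal axis) in each array of days 1, 7 and 14; colour and shape mark the replicate number. At day 7 replicate 3 is the highest and replicate 1 the lowest for all 6 genes; at day 1 Atf3 is above 1 in every array while Npy is near 0.

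The means of marker lists of other cells varied little over the day 7 arrays. In day 7 replicates 1 to 3 the mean log2 signal of 26 interneuron markers other than Vip and Npy was 6.42, 6.43 and 6.35. In control it was 6.36 to 6.42. Some of these markers had low log2 signals in day 7 replicates 1 to 3. Examples are Gad1 (4.11, 3.82 and 3.53), Gad2 (4.26, 4.02 and 4.07) and Dlx1 (3.75, 3.75 and 3.49). A steady list mean therefore says little of cell numbers. The mean of 18 deep layer markers was 7.80, 7.79 and 7.72 (control 7.61 to 7.80). Both lists were lowest in replicate 3, and their part in the peptide signals was not tested. The means of 9 astrocyte markers were 7.27, 7.23 and 7.33 (control 7.22 to 7.31). The means of 9 oligodendrocyte markers were 6.27, 6.17 and 6.24 (control 6.13 to 6.22). Neither of these glial lists followed the order of the members, but in both replicate 3 lay above the highest control. The part of glial cells in the peptide signals was not tested. The order 3, 2, 1 did hold for 13 striatal markers (6.36, 6.37 and 6.40, control 6.39 to 6.50), 10 microglia markers (5.94, 5.97 and 6.07, control 5.99 to 6.09) and 10 vessel and meningeal markers (7.40, 7.44 and 7.47, control 7.48 to 7.68). In these 3 lists replicate 3 lay no higher than the highest control, and their part in the peptide signals was not tested. At day 14 the interneuron mean was 6.45, 6.49 and 6.40 and the astrocyte mean 7.42, 7.66 and 7.38, the latter above every control in all 3 arrays, and this too was not tested. The 17 axotomy genes had means of 7.45, 7.61 and 7.94, against 7.34 to 7.38 in control. The beta-actin 3′ minus 5′ difference was 1.10, 1.09 and 1.14 in these 3 arrays.

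**Figure D3:**
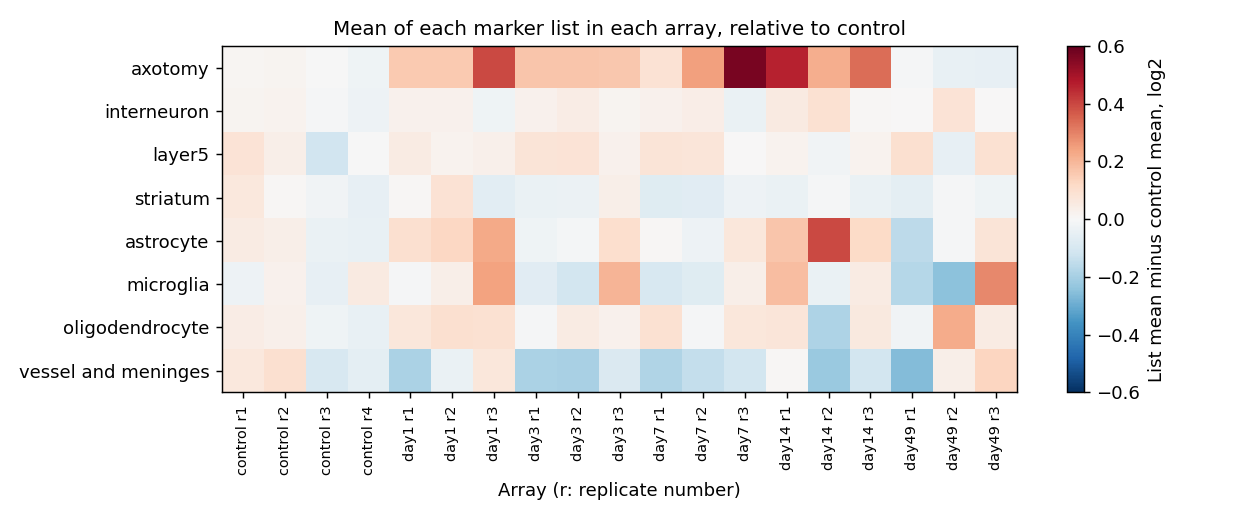
Mean log2 signal of the axotomy list (without Vip, Gal and Npy) and of 7 cell type marker lists in each array, minus the control mean (colour scale, log2). The axotomy list is darkest in day 7 replicate 3, and the interneuron list is near its control mean in every array.

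Over the 19 arrays the gene most like Vip was Npy, with a Pearson correlation of 0.950, then Gal (0.945) and Sprr1a (0.878). The genes most like Gal were Vip (0.945), Npy (0.897) and Casp4 (0.836), the gene of an inflammatory caspase. Those most like Npy were Vip (0.950), Sprr1a (0.897) and Gal (0.897). The ranking ran over the 14216 other genes with 1 probe set each, and the values are descriptions without a test. The arrays of one group share their time and the 3 genes were picked for a common pattern, so a high value is built in.

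The likeness rested on the arrays of days 7 and 14. Within these 6 arrays the correlation was 0.943 for Vip with Npy, 0.947 for Vip with Gal and 0.866 for Gal with Npy. Within the other 13 arrays it was 0.561, 0.398 and 0.250. For deviations from the group means over all 19 arrays it was 0.881, 0.851 and 0.772, and both genes of a pair lay on the same side of their group mean in 15, 13 and 13 of 19 arrays. By Spearman's rho over 19 arrays the pairs had 0.816, 0.789 and 0.677. Without the 2 arrays farthest from its median, day7 replicate 3 and day14 replicate 1, Vip had 0.901 with Npy and 0.907 with Gal.

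Sprr1a had a correlation of 0.635 with Vip and 0.709 with Npy within the 13 arrays outside days 7 and 14. Atf3 ranked 62nd for Vip (0.628), 28th for Gal (0.705) and 140th for Npy (0.529) over the 19 arrays. In the 13 arrays its correlation was 0.378 with Vip, 0.711 with Gal and -0.08 with Npy. Within the 6 arrays of days 7 and 14 it was 0.905, 0.967 and 0.883. Casp4 was at 6.71 ± 0.08 (SD, n = 4) in control, 6.89 ± 0.07 at day 7 and 7.20 ± 0.14 at day 14 (SD, n = 3; limma adjusted p = 1 and 0.293).

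**Figure D4:**
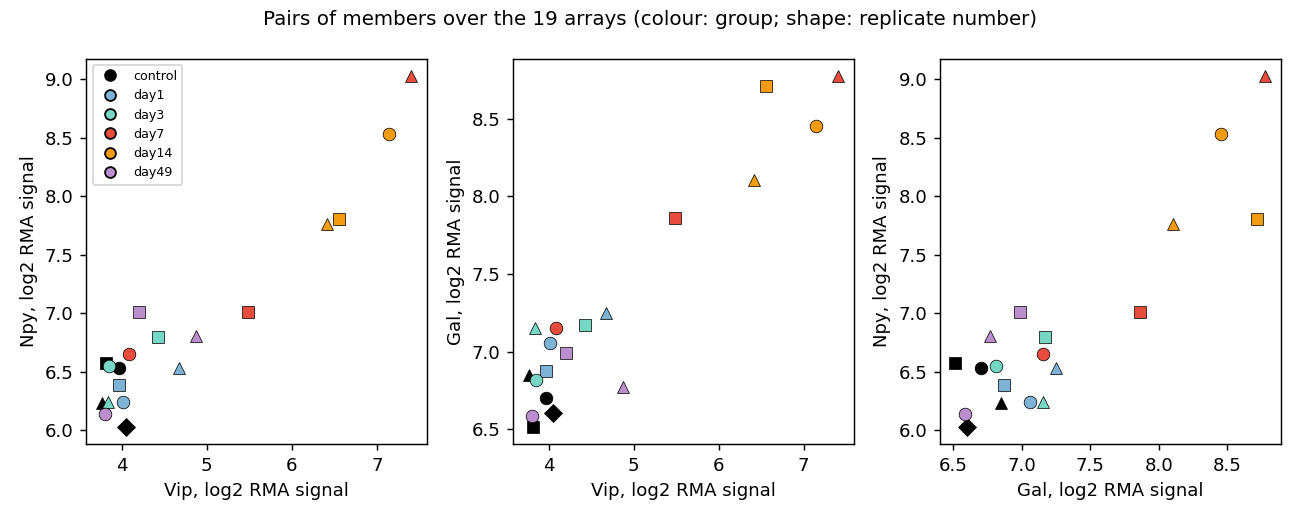
Log2 RMA signals of each pair of Vip, Gal and Npy (both axes) in the 19 arrays; colour marks the group and shape the replicate number. The 3 day 14 arrays and day 7 replicates 2 and 3 run up the diagonal, and the other arrays lie in 1 cloud at low signal.

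The ligands, receptors, machinery, other precursors and inducing genes that belong to the neuropeptide system came to 115 measured genes. None of the 115 passed at any day with limma after Benjamini-Hochberg adjustment over 31042 probe sets. At an unadjusted p under 0.05 there were 5 at day 1, 3 at day 3, 1 at day 7, 10 at day 14 and 27 at day 49. Over all probe sets limma called 0.0354% at day 1 (11 probe sets, and 3 with the replicate number as a block) and 0% at each of days 3, 7, 14 and 49. The share at an unadjusted p under 0.05 was 1.64%, 0.908%, 0.886%, 13.1% and 15.4% at these days in order of time. Of all probe sets, 53.3% lay above control at day 1, 52.3% at day 7 and 65% at day 14, whatever their p. The median difference of the 115 genes was -0.01 at day 7, and that of all 14217 genes was 0.01.

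Of the family ligands, 8 were measured, including Adcyap1, the gene of the peptide PACAP that shares receptors with VIP. Adcyap1 had a log2 signal of 8.91 ± 0.09 (SD, n = 4) in control and differed by 0.03 at day 7 and 0.14 at day 14. Pyy, the gut relative of Npy, differed by 0.22 (SE 0.15, limma adjusted p = 1) and the incretin gene Gip by 0.17 (SE 0.13, adjusted p = 1) at day 7, the smallest p of the list. All 8 were above control at day 14, with a median of 0.22. Without the 2 arrays that stand apart 6 of 8 were, with a median of 0.07, against 0.01 for all genes.

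Each of 10 measured receptors differed little from control at day 7, between -0.27 and 0.07. Among the VIP and PACAP receptors, which couple to cyclic AMP, Vipr1 differed by -0.08, Vipr2 by 0.04 and Adcyap1r1 by 0.04. Among the galanin receptors Galr1 had low log2 signals, 3.59, 3.59 and 3.55 at day 7, all below the lowest control (3.64), which was low as well. Its difference was -0.27 (SE 0.11, unadjusted p = 0.0212, limma adjusted p = 1), and over all probe sets 4.19% had every day 7 array below every control. Galr2 differed by -0.04 and Galr3 by 0.07. Among the Npy receptors Npy1r differed by -0.17, Npy2r by -0.19 (SE 0.11), Npy4r by 0.06 and Npy5r by -0.24 (SE 0.15), each with adjusted p = 1. Npy2r was also below every control at day 7. Of the 4 receptor genes with several probe sets, Vipr1 and Adcyap1r1 had probe sets of both signs at day 7.

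At day 14 the receptors lay between -0.23 (Galr1) and 0.21 (Npy4r), and all adjusted p-values were 0.365 or above. At day 49 Npy1r differed by -0.46 and Vipr1 by 0.44, with adjusted p of at least 0.306. In day 49 replicate 2, an array that stands apart, Npy1r had 8.29 and Vipr1 5.12, against 9.10 and 8.68 for Npy1r and 4.30 and 4.15 for Vipr1 in the other arrays of that day.

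Of 16 processing enzymes, which cut and finish peptide precursors or degrade peptides, 5 were above and 11 below control at day 7, with a median of -0.03. The carboxypeptidase gene Cpe was at 12.67 ± 0.06 (SD, n = 4) in control and differed by -0.01. The convertase gene Pcsk2 differed by -0.12 and Pam, whose product amidates the end of all 3 peptides, by -0.07. The smallest p were those of Ecel1, a protease gene of injured neurons (0.27, SE 0.19), and Qpct (-0.22, SE 0.19), both with limma adjusted p = 1. Ecel1 differed by 0.59 at day 14 (adjusted p = 0.365). The other Ecel1 probe set, of lower mean signal, differed by 0.004 at day 7 and 0.17 at day 14. Of 17 granule and release genes 11 were above control at day 7, with a median of 0.02. Vgf, a granule protein gene, differed by 0.27 (SE 0.14) and Scg2 by -0.13 (SE 0.09), with adjusted p = 1 for both.

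As a list, other neuropeptide genes were not higher than control at day 7. Of 33 precursors 12 were above and 21 below control at day 7, between -0.22 (Tac1) and 0.26 (Cck). Among them Nts, which is also on the axotomy list, differed by 0.13 and was highest in day 7 replicate 3. The interneuron peptide gene Sst had log2 signals of 9.92, 9.84 and 9.80 in day 7 replicates 1 to 3, a difference of -0.12 from control. Tac1, the substance P precursor gene, differed by -0.22 (SE 0.15) and Trh by -0.15 (SE 0.08), the smallest p of the list, each with limma adjusted p = 1. Cck differed by 0.26 and Penk by -0.22. At day 14 29 of the 33 were above control with a median of 0.11, and without the 2 arrays that stand apart 17 were, with a median below 0.01.

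Of 31 cytokine, receptor and transcription factor genes known to act on neuropeptide genes, 13 were above and 18 below control at day 7, with a median of -0.02. Lif, a cytokine that switches on Vip and Gal in cut sympathetic neurons, differed by 0.13, Il6 by 0.08 and Stat3 by -0.24. Sox11, a transcription factor of regrowing neurons, differed by 0.29 (SE 0.15) and Atf2 by -0.68 (SE 0.34), both with limma adjusted p = 1. At day 1 the inducer list had 23 of 31 genes above control with a median of 0.09, among them Cntf at 0.49 (SE 0.14, adjusted p = 1). The median of all genes that day was 0.01.

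**Figure D5:**
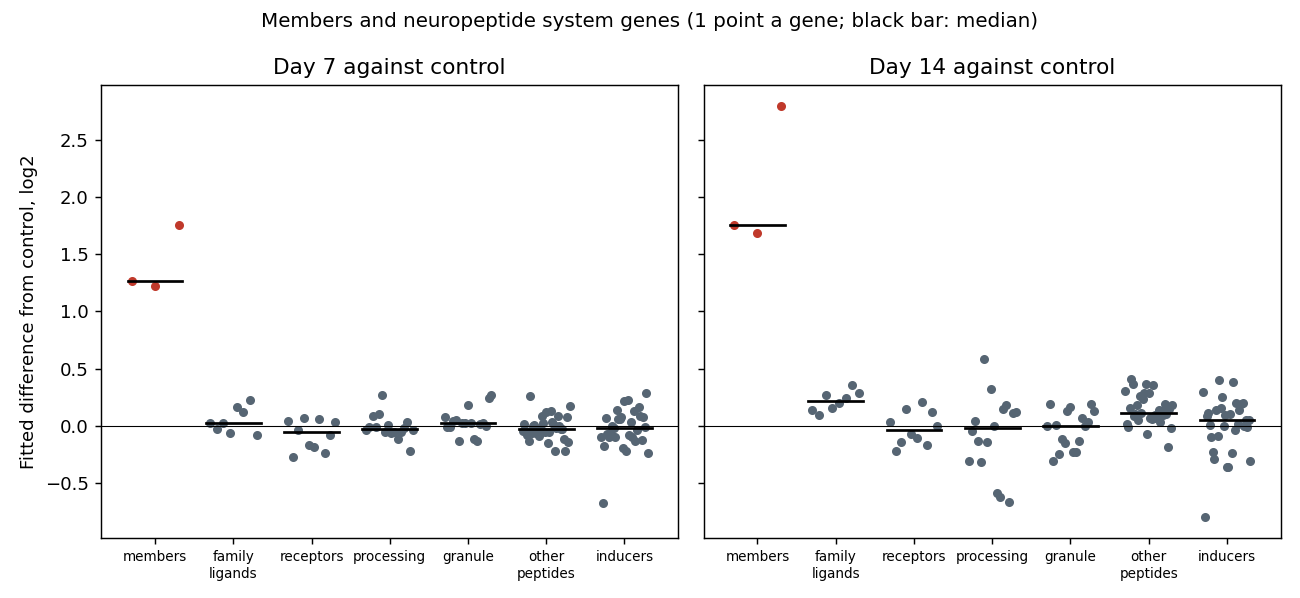
Fitted difference from control (vertical axis, log2) at days 7 and 14 for Vip, Gal and Npy (red) and for the genes of 6 neuropeptide system lists (grey, 1 point a gene); black bars are medians. The members lie between 1.22 and 2.81, and no other gene of the system is above 0.6.

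Of the 17 axotomy genes none passed with limma at any day, and 5 had an unadjusted p under 0.05 at day 7. At day 7, 16 of the 17 were above control, with a median of 0.25, and at day 14 it was 14 with a median of 0.14. With these arrays removed (day14 replicate 2 and day49 replicate 2) it was 15 at day 14 with a median of 0.23. The differences at days 7 and 14 were 1.22 and 1.62 for Atf3, 1.03 and 1.47 for Csrp3, 0.51 and 0.83 for Reg3b, 0.35 and 0.43 for Flrt3, 0.32 and 0.54 for Sprr1a and 0.25 and 0.40 for the cytokine gene Il24. Their limma adjusted p-values were 1 at day 7 and between 0.301 and 0.365 at day 14. Jun (0.22), Gadd45a (0.14), Nts (0.13), Hspb1 (0.09), Gap43 (0.06) and Tubb3 (0.00) differed less at day 7. At day 49 the list had a median of -0.04. Because the axotomy list was chosen with earlier results of these data known, its counts above control are only a description.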

How the data were processed

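Deposited values are the authors' RMA output on a log2 scale, per the submitters' processing notes (RMA version: not given in the sources used here). This procedure makes the distributions of all arrays alike, which hides any change shared by most transcripts, and signals of different genes were not compared. The number of arrays limits the precision. Of 31099 probe sets, 57 array controls were dropped. Platform symbols were brought to current RefSeq names by gene ID (20758 probe sets) or an accession (2) to GRCr8; 66 kept the old symbol, 436 had several and 9780 none. Each other gene was represented by its probe set of highest mean.

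All 19 arrays were fitted in 1 limma 3.58.1 model of 6 group means (R 4.3.3, eBayes defaults), with two-sided tests against control and Benjamini-Hochberg adjustment over 31042 probe sets at 0.05; the fit was tested on simulated data. The members and lists were chosen with earlier results of these data known. Named genes are the members, the axotomy list, the receptors, the 2 smallest p of each system list at day 7 and the 3 genes most like each member. Genes beyond these were named after their values were seen. They are Cpe, Pam, Pcsk2, Sst, Cck, Penk, Lif, Il6, Stat3, Cntf, Tslp, the deep layer and interneuron markers named and the genes of wide day 7 range. Group means share replicate numbers, which the labels do not tie to a litter or day. Deviations of like-numbered control and day 1 arrays correlated by 0.166, 0.117 and 0.269, and at the other days not every pair exceeded 0.1. Alternatives were median centring, repeated quantile normalization, array weights, the replicate block, fits of only the groups compared, a filter, trend and robust eBayes, all probe sets and arrays left out.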

Additional observations from a re-analysis of the deposited data

How the results depend on the processing

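The count of neuropeptide system genes called against control was 0 at days 3, 7 and 14 under every alternative run. At day 1 it was 3 (Cck, Cebpb and Cntf) with array weights, where 175 of all 31042 probe sets were called, and 0 otherwise. At day 49 it was 32 with array weights, where 6514 probe sets were called in all, and between 0 and 13 when single arrays were left out; the 13 arose without day49 replicate 1, with 2435 probe sets called in all, and leaves day49 replicate 2, an array that stands apart, as 1 of 2. The replicate block gave 0 at every day, as did the fit without the 2 arrays that stand apart. The cause of the counts with array weights was not tested.

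Member differences at days 7 and 14 stayed above 0 and within 1 SD (that of the day's arrays) of the fitted value in every alternative. For left-out arrays this says little. Every array of both days lay above every control, so no such difference could fall below 0. With 3 arrays a day, leaving out 1 of them cannot move the mean by 1 SD. Over the alternatives, the day 7 difference ran from 0.89 to 2.55 for Vip, 0.84 to 1.65 for Gal and 0.49 to 1.68 for Npy. At day 14 it ran from 2.59 to 3.00 for Vip, 1.61 to 1.92 for Gal and 1.44 to 1.86 for Npy. With the replicate block the day 7 values were 1.81, 1.24 and 1.12, and the block changed no call of a system gene. Over all probe sets it lowered the day 1 count from 11 to 3. The member differences with the block equal those without control replicate 4, as no other array has that number, so these are not separate alternatives. The Npy difference at day 1 was -0.11 with array weights and -0.06 with the replicate block. Left-out arrays moved it between -0.06 and 0.12, the Vip difference between 0.09 and 0.45 at day 1 and between -0.06 and 0.24 at day 3. Ranked by Spearman's rho, 1, 1 and 0 of the 3 genes most like Vip, Gal and Npy stayed among the first 3; with day14 replicate 2 and day49 replicate 2 removed it was 2, 2 and 3.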
